A study of Mus musculus with 4 samples.

Results

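Genes of MHC class I and class II antigen presentation were examined in 4 infarcted mouse hearts, 2 carrying the reprogramming transgene (TTg-MI) and 2 controls (Ctrl-MI). The members were taken by name: every gene symbol of the array's annotation that begins with H2-, of which there were 35, together with 8 of 10 further genes of the pathway, namely B2m, Ciita, Tap1, Tap2, Tapbp, Psmb8, Psmb9 and Psmb10. The other 2 of the 10 matched no named probe and were not analysed here. This gave 43 genes out of 19505 gene symbols, each read by 1 probe, where a probe is the array's summary value of 1 transcript cluster. By textbook role they comprised 25 class I presenting chains, 3 genes of class I peptide loading, 3 immunoproteasome subunits, 9 class II genes, the class II regulator Ciita and 2 others.

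TTg-MI hearts came from mice of genotype Tcf21iCre/Tomato/MGTH2A and Ctrl-MI hearts from mice of genotype Tcf21iCre/Tomato, so that the Cre driven from the fibroblast gene Tcf21 and the Tomato reporter were shared by both groups. The name MGTH2A stands, by its use in the literature, for Mef2c, Gata4, Tbx5 and Hand2, heart transcription factors made from 1 joined reading frame. All mice were males whose left coronary artery was tied off at 8 weeks of age, a model of myocardial infarction (MI), and the hearts were taken 3 months later. Mice in which the pumping function measured soon after surgery stayed high had been removed, the strain and any agent used to switch on the Cre are not given in the labels, and the design text calls the 2 hearts of a group independent biological replicates. The comparison asks how antigen presentation genes stood in chronically infarcted hearts with and without the transgene.

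MHC class I molecules are formed by a heavy chain and beta-2 microglobulin, occur on nearly all nucleated cells, and show peptides cut from cytosolic proteins by the proteasome to CD8 T cells. Class II molecules are heterodimers of an alpha and a beta chain that show peptides from engulfed material to CD4 T cells, and are made mainly by macrophages, dendritic cells and B cells. In the heart, resident and recruited macrophages are a major class II-bearing population, while interferon gamma can raise both classes in other cells.

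The class II genes share a conserved promoter module, in which an X box and a Y box lie a short distance before the start and are bound by the regulatory factor X and NF-Y complexes that recruit CIITA, and class I promoters hold a related module. The 150 bases before the start are shown for the 3 class II genes with the largest differences and for 2 class I genes, H2-K1 and H2-Q4, all chosen after their values were seen, because these sequences set the class II module beside its class I counterpart. They are RefSeq sequences of build GRCm38.p6, written 5′ to 3′ on the strand of the gene, and capitals mark matches on either strand to the letters ATTGG (Y box core), ACNGATG (X box core), TGACG (X2 core) and GGGATTCCC (the kappa B site of class I promoters). The stretches lie at chr17:34287824-34287973, minus strand, for H2-Aa; at chr17:34305717-34305866, plus strand, for H2-Eb1; at chr17:34153041-34153190, plus strand, for H2-DMb1; at chr17:34000348-34000497, minus strand, for 1 of 2 listed H2-K1 starts; and at chr17:35379467-35379616, plus strand, for H2-Q4.
H2-Aa: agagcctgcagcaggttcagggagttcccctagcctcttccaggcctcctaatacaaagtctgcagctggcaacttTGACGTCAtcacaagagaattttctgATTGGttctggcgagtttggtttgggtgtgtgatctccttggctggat
H2-Eb1: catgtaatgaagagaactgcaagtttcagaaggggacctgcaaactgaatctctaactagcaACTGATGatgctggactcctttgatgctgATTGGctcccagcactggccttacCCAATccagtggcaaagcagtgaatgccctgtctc
H2-DMb1: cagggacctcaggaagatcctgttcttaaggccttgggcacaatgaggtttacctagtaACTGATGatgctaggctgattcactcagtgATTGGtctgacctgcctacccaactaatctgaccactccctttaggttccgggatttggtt
H2-K1: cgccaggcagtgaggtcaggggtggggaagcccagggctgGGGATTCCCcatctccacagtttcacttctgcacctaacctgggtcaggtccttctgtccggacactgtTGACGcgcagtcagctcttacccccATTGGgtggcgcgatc
H2-Q4: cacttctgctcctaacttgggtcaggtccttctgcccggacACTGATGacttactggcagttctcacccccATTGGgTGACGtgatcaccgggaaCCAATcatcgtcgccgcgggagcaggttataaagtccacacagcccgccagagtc

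The Y box core began 48 bases before the start in H2-Aa, 59 in H2-Eb1, 61 in H2-DMb1, 16 in H2-K1 and 79 in H2-Q4. Within the printed bases an X box core lay upstream of it in H2-Eb1 (from base 88), H2-DMb1 (from base 91) and H2-Q4 (from base 109). H2-Aa held the X2 core on both strands, in overlapping matches, from bases 74 and 71, and the X2 core also began at base 41 in H2-K1 and base 73 in H2-Q4. H2-K1 held the kappa B letters from base 110. A promoter window was listed for 35 of the 43 members. In the 250 bases before the start, the Y box core was found in 8 of 8 class II genes and 17 of 20 class I genes with a window, against 33.8% of all 32851 windows. The X box core was found in 6 of 8 class II and 9 of 20 class I genes, against 8.31% of all windows, the X2 core in 1 of 8 and 10 of 20, against 17.8%, and the kappa B letters in 0 of 8 and 2 of 20, against 0.301%. A gene counted if any of its windows matched, while the percentages are shares of single windows. The X box match of H2-Aa lay upstream of its printed bases. All of these are matches of letters and not shown to be bound sites.

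Across the whole table, the arrays' medians lay between 6.55 and 6.62 on the deposited log2 scale and their lower quartiles between 5.41 and 5.48. A value under its array's lower quartile is taken here as not shown to be above background. The labelled tissue, the whole heart, held its cardiomyocyte markers, which lay between 15.09 and 19.91. Ctrl-MI replicate 2, however, stood apart in some atrial genes, though not in all. Values are given for replicates 1 and 2, the order used throughout. Myl7, an atrial myosin light chain, was at 12.45 and 11.47 in TTg-MI hearts, against 10.44 and 5.61 in Ctrl-MI hearts. Sln, which encodes the calcium pump regulator sarcolipin, was at 14.42 and 13.06, against 14.07 and 7.90. Myl4 was also lowest on Ctrl-MI replicate 2. Nppa was level between the Ctrl-MI hearts (SD 0.014). It lay within 1 log2 unit of the maximum on 3 arrays, both Ctrl-MI arrays among them, so a difference there may be hidden. Bmp10 was at 12.38 and 11.82 in TTg-MI hearts, against 5.31 and 5.39 in Ctrl-MI hearts, where both values were under their arrays' lower quartiles. It was the only atrial marker with an adjusted p under 0.05 (0.00489 in limma). Ctrl-MI replicate 1 had the highest mean level of macrophage markers. As both Ctrl-MI hearts thus stand apart in some respect, class medians, and those larger differences that move by over 1.5 times, are given also without single arrays.

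Class II genes had a lower mean in TTg-MI hearts for 9 of 9 genes, with a median log2 difference of -0.57 (1.49-fold lower), where the median of all 22206 probes was 0.011 and 47.7% of probes had a lower mean. For 6 of the 9 the TTg-MI pair lay wholly below the Ctrl-MI pair, against 18.7% of all probes. The class I presenting chains were lower in mean for 16 of 25, with a median of -0.11 (1.08-fold lower). Of the 25, 4 (16.0%) had both TTg-MI arrays below, a share near that of all probes. These class I figures include 7 chains under the lower quartile of all 4 arrays. With dim probes left out, the class I median was -0.25 over 16 chains. Within class I the classical molecule (B2m, H2-K1 and H2-D1) differed by a median of -0.82. Since RNA came from the whole heart, fewer cells of a type and less RNA per cell cannot be told apart.

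No member passed the test across all probes. In limma with Benjamini-Hochberg adjustment over all 22206 probes, 0 of 43 members had an adjusted p under 0.05, against 0.0045% of probes (1 probe), and the smallest adjusted p of a member was 0.546. At an unadjusted p under 0.05, 9 of 43 members were lower in TTg-MI hearts, against 5.07% of all probes, and 0 were higher, against 3.18%. The 9 were H2-Aa, H2-Eb1, H2-DMb1, H2-DMb2, B2m, H2-Q4, H2-Q5, H2-T-ps and Psmb10. Over all members, both TTg-MI arrays were below both Ctrl-MI arrays for 15 (34.9%), against 18.7% of all probes. They were above for 2, against 19.4% of all probes. The 2 were H2-M10.4 and H2-M10.5, and H2-M10.5 was under the lower quartile of all 4 arrays. In either direction, 8.25% of all probes had an unadjusted p under 0.05. When TTg-MI replicate 1 or 2 was left out the 9 became 4 or 1, against 5.79% or 3.88% of all probes, and when Ctrl-MI replicate 1 or 2 was left out, 6 or 17, against 6.34% or 14.7%. Such fits leave 1 array in a group, so their p does not measure the spread between that group's hearts. Lacking Ctrl-MI replicate 2, the differences were -3.14 for H2-Aa, -2.45 for H2-Ab1, -2.59 for H2-Eb1 and -2.01 for H2-DMb1. Lacking Ctrl-MI replicate 1, they were -0.89, -0.14, -0.65 and -0.80. The SD between the Ctrl-MI hearts was 1.60, 1.63, 1.37 and 0.86 in these genes.

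**Figure D1:**
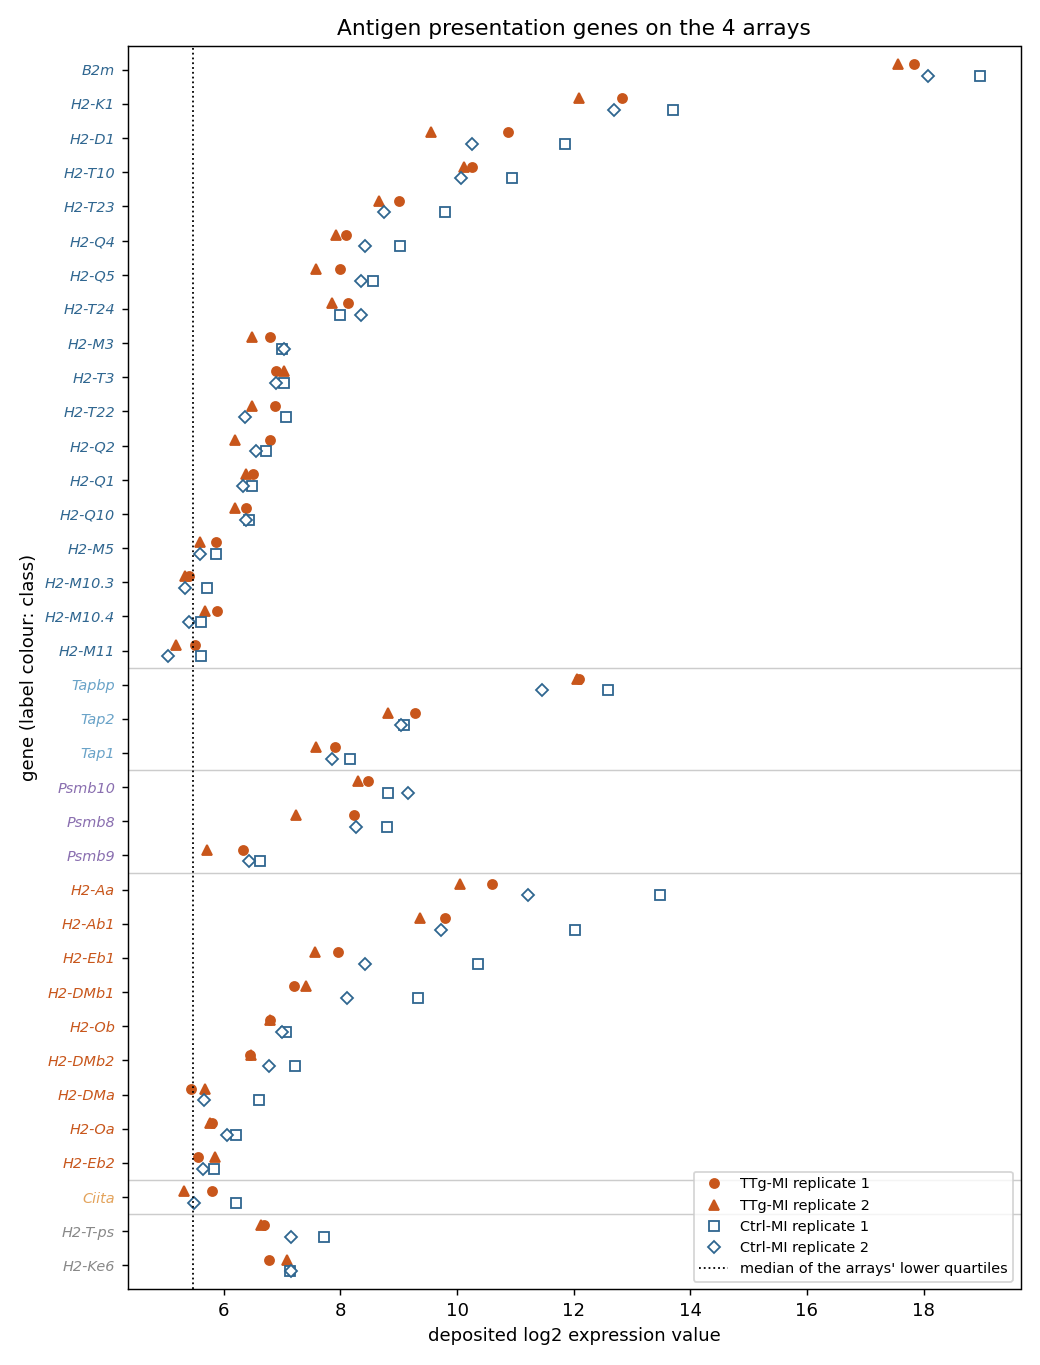
Deposited log2 values (horizontal axis) of the 36 members that were not under the lower quartile of all 4 arrays, 1 row per gene, with gene labels coloured by class, TTg-MI arrays as filled and Ctrl-MI arrays as open symbols. In the class II rows the open square of Ctrl-MI replicate 1 lies far to the right for H2-Aa (13.47), H2-Ab1 (12.03) and H2-Eb1 (10.36); values of different genes come from different probes and are not compared.

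Of the class II presenting chains, H2-Aa, the alpha chain of the I-A molecule, stood at 10.60 and 10.06 in TTg-MI hearts, against 13.47 and 11.22 in Ctrl-MI hearts. Its beta chain partner H2-Ab1 stood at 9.79 and 9.37, against 12.03 and 9.72, and H2-Eb1, the beta chain of the I-E molecule, at 7.96 and 7.57, against 10.36 and 8.41. In all 3 genes the TTg-MI arrays were low and close together, and Ctrl-MI replicate 1 lay well above Ctrl-MI replicate 2. The groups did not overlap for H2-Aa and H2-Eb1, while TTg-MI replicate 1 lay just above Ctrl-MI replicate 2 for H2-Ab1. H2-Eb2, a further beta chain gene, stood at 5.55 and 5.86, against 5.83 and 5.65, with overlapping groups. These values lay close above the arrays' lower quartiles, which limits what its difference can show.

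The differences were -2.02 for H2-Aa (SE 0.71, 4.04-fold lower), -1.62 for H2-Eb1 (SE 0.61, 3.07-fold), -1.29 for H2-Ab1 (SE 0.72, 2.45-fold) and -0.03 for H2-Eb2 (SE 0.18). Their adjusted p in limma were 0.580, 0.588, 0.711 and 0.985. Spread between the Ctrl-MI hearts was large beside these differences, as the SD for H2-Aa was 0.39 in TTg-MI and 1.60 in Ctrl-MI hearts, for H2-Eb1 0.27 and 1.37, and for H2-Ab1 0.30 and 1.63 (n = 2 each). With Ctrl-MI replicate 1 left out, the 3 larger differences were -0.89, -0.65 and -0.14 for H2-Aa, H2-Eb1 and H2-Ab1, and with Ctrl-MI replicate 2 left out they were -3.14, -2.59 and -2.45. Leaving out TTg-MI replicate 1 gave -2.29, -1.81 and -1.50, and leaving out TTg-MI replicate 2 gave -1.74, -1.43 and -1.08.

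The peptide editor H2-DM, which exchanges the placeholder peptide of newly made class II molecules for others, is formed by an alpha chain (H2-DMa) and a beta chain (H2-DMb1 or H2-DMb2). H2-DMb1 stood at 7.20 and 7.41 in TTg-MI hearts, against 9.32 and 8.11 in Ctrl-MI hearts, a difference of -1.41 (SE 0.40, 2.65-fold lower, adjusted p in limma 0.546). H2-DMb2 stood at 6.46 and 6.46, against 7.22 and 6.77, a difference of -0.54 (SE 0.20, adjusted p in limma 0.588). The arrays of the groups were apart for both beta chain genes, and the TTg-MI hearts were nearly level. H2-DMa stood at 5.43 and 5.68, against 6.60 and 5.66, and TTg-MI replicate 1 lay under its array's lower quartile, so that the difference of -0.57 (SE 0.33) may understate the size. Without Ctrl-MI replicate 1 the differences were -0.80, -0.31 and -0.10 for H2-DMb1, H2-DMb2 and H2-DMa, and lacking Ctrl-MI replicate 2 they were -2.01, -0.76 and -1.05.

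H2-O, which restrains H2-DM and is known mainly from B cells, is encoded by H2-Oa and H2-Ob. H2-Oa stood at 5.80 and 5.77 in TTg-MI hearts, against 6.20 and 6.05 in Ctrl-MI hearts, and H2-Ob at 6.80 and 6.79, against 7.07 and 7.00. The hearts of a group were close together and the groups did not overlap for either gene, but the differences were small, at -0.34 (SE 0.15) and -0.24 (SE 0.15). They kept to -0.42 to -0.26 for H2-Oa and -0.28 to -0.21 for H2-Ob as single arrays were left out. Ciita, the master regulator that class II promoters depend on, stood at 5.79 and 5.32, against 6.21 and 5.49. TTg-MI replicate 2 was under its lower quartile and the groups overlapped, so the difference of -0.30 (SE 0.30) may understate the size, and it was 0.065 without Ctrl-MI replicate 1.

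**Figure D2:**
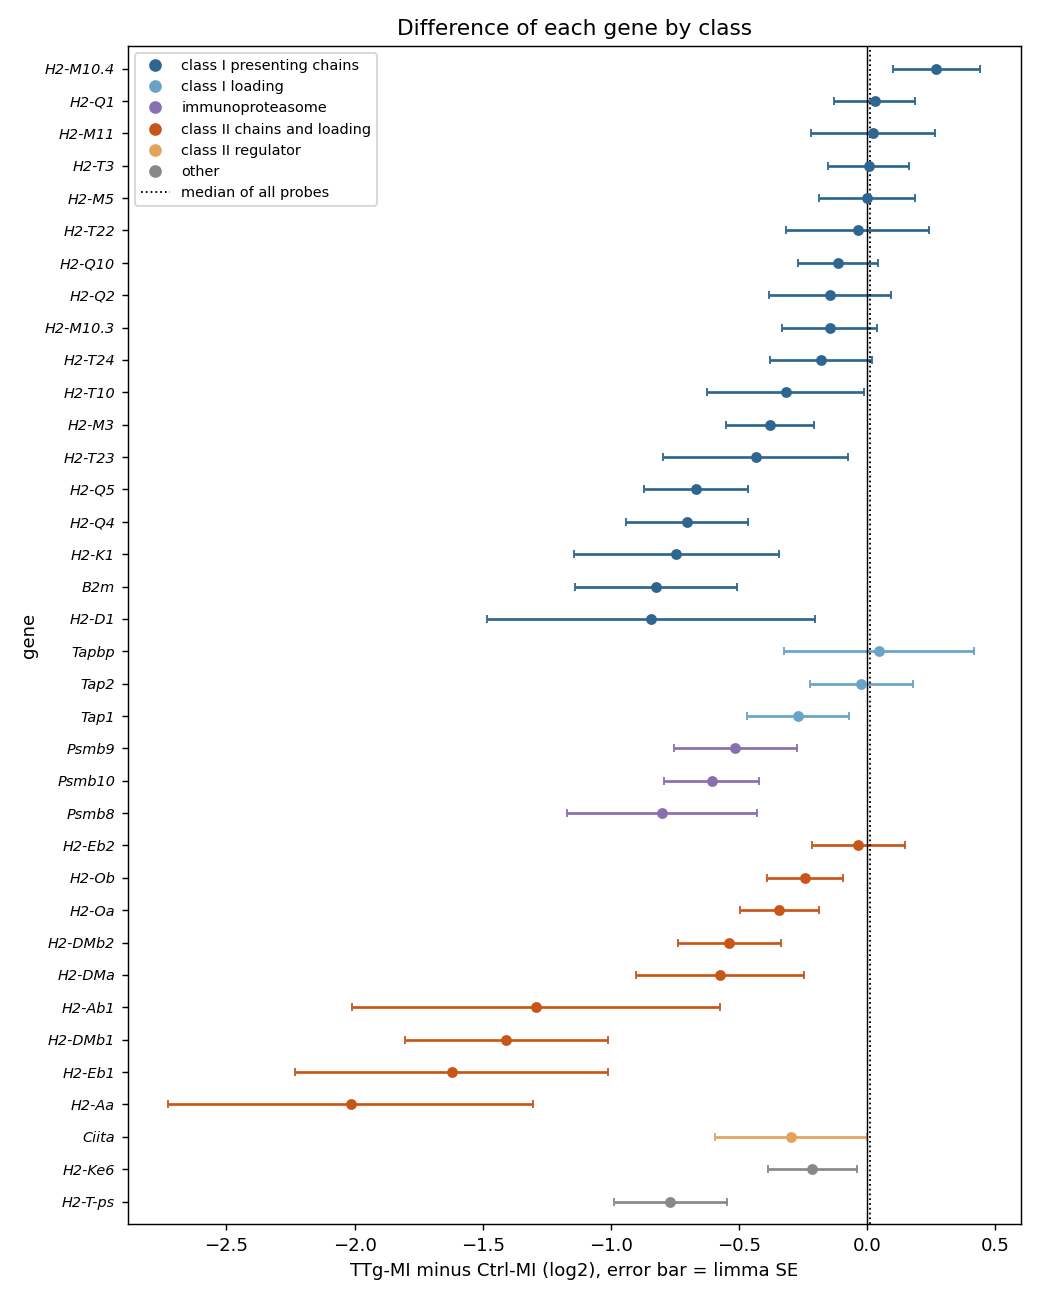
TTg-MI minus Ctrl-MI difference in log2 units (horizontal axis) of the same 36 members, as points with limma SE as error bars, coloured and grouped by class. Class II points run from -2.02 for H2-Aa to -0.03 for H2-Eb2, class I points from -0.84 for H2-D1 to 0.27 for H2-M10.4, and the dotted line marks the median of all probes.

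The class I molecule proper was lower in mean in TTg-MI hearts, with much spread. B2m, the light chain of every classical class I molecule, stood at 17.84 and 17.56 in TTg-MI hearts, against 18.96 and 18.08 in Ctrl-MI hearts. The groups did not overlap, and Ctrl-MI replicate 1 was close to the top of its array's scale, at most 1 log2 unit from the maximum. The difference was -0.82 (SE 0.32, 1.77-fold lower, adjusted p in limma 0.594) and may be understated there. The heavy chain H2-K1 stood at 12.82 and 12.09, against 13.70 and 12.70, a difference of -0.74 (SE 0.40, adjusted p in limma 0.696). The heavy chain H2-D1 stood at 10.87 and 9.56, against 11.86 and 10.25, a difference of -0.84 (SE 0.64, adjusted p in limma 0.805). In both heavy chains TTg-MI replicate 1 lay above Ctrl-MI replicate 2, so the groups overlapped. Leaving out TTg-MI replicate 1 gave differences of -0.96, -1.11 and -1.50 for B2m, H2-K1 and H2-D1, and leaving out TTg-MI replicate 2 gave -0.68, -0.38 and -0.19. Leaving out Ctrl-MI replicate 1 gave -0.38, -0.24 and -0.039, and leaving out Ctrl-MI replicate 2 gave -1.27, -1.24 and -1.65.

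The H2-Q and H2-T genes encode class Ib molecules, which vary less between individuals and often have special ligands or restricted tissues. H2-Q4 stood at 8.10 and 7.92 in TTg-MI hearts, against 9.02 and 8.41 in Ctrl-MI hearts, and its neighbour H2-Q5, a transcribed pseudogene in RefSeq, at 8.00 and 7.58, against 8.56 and 8.35. These were 2 of the 5 class I chains with a difference of -0.6 or below, the others being B2m, H2-K1 and H2-D1. The differences were -0.70 for H2-Q4 (SE 0.24, 1.63-fold lower, adjusted p in limma 0.572) and -0.67 for H2-Q5 (SE 0.20, 1.59-fold lower, adjusted p in limma 0.553), and the groups did not overlap. H2-Q4 differed by -0.40 without Ctrl-MI replicate 1. H2-Q1 stood at 6.50 and 6.38, against 6.49 and 6.33, and H2-Q2 at 6.80 and 6.19, against 6.72 and 6.56. H2-Q10, a secreted class I molecule of the liver, stood at 6.38 and 6.20, against 6.43 and 6.38. These 3 had overlapping groups and differences of 0.03, -0.14 and -0.11, within their SE of 0.16 to 0.24.

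H2-T23 encodes Qa-1, which presents leader peptides of other class I chains to NKG2 receptors of natural killer cells. It stood at 8.998 and 8.67 in TTg-MI hearts, against 9.79 and 8.74 in Ctrl-MI hearts, and H2-T10, a transcribed pseudogene in RefSeq, at 10.26 and 10.11, against 10.95 and 10.06. Ctrl-MI replicate 1 was the high array in both and the other 3 lay close together. The differences of -0.43 (SE 0.36) and -0.32 (SE 0.31) turned to 0.090 and 0.13 without Ctrl-MI replicate 1. H2-T24 stood at 8.13 and 7.86, against 7.99 and 8.35 (-0.18), and H2-T22 at 6.87 and 6.48, against 7.06 and 6.37 (-0.04). H2-T3, known as the TL antigen of intestinal epithelium, stood at 6.89 and 7.03, against 7.03 and 6.89 (0.0065), and in all 3 the groups overlapped. H2-T-ps, listed as protein-coding in RefSeq despite its name and counted with the others, stood at 6.69 and 6.64, against 7.71 and 7.16, a difference of -0.77 (SE 0.22, 1.70-fold lower, adjusted p in limma 0.546) without overlap, and of -0.49 without Ctrl-MI replicate 1.

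Of the 11 H2-M genes, H2-M3, which presents peptides that begin with N-formyl methionine, stood at 6.79 and 6.49 in TTg-MI hearts, against 7.00 and 7.04 in Ctrl-MI hearts, a difference of -0.38 (SE 0.17) without overlap. The H2-M10 genes are known from vomeronasal neurons, and 6 of the H2-M genes (H2-M1, H2-M9, H2-M10.1, H2-M10.2, H2-M10.5 and H2-M10.6) fell short of the lower quartile on each of the 4 arrays, as did the pseudogene H2-Bl. These 7 members ranged from 4.65 to 5.44 and no difference is given for them. H2-M10.4 stood at 5.88 and 5.68, against 5.61 and 5.41, with both TTg-MI arrays above (0.27, SE 0.17), but Ctrl-MI replicate 2 was under its lower quartile. H2-M5 stood at 5.86 and 5.60, against 5.87 and 5.59, H2-M10.3 at 5.41 and 5.34, against 5.71 and 5.34, and H2-M11 at 5.51 and 5.19, against 5.60 and 5.05, all with overlapping groups. H2-M10.3 was under the lower quartile on 3 arrays and H2-M11 on 2. The class I median of -0.11 thus includes low genes such as these. It was -0.25 when dim probes were left out, and 0.042 without Ctrl-MI replicate 1, against -0.26 for class II in the same fit.

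Class I genes of H2-K, H2-D, H2-Q and H2-T type are close relatives, and whether the oligonucleotides of 1 gene also read transcripts of another was not analysed here, so the division of signal among them is uncertain. The strain, and with it the H2 alleles of these mice, is not given in the labels.

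The 3 members of peptide loading onto class I had overlapping groups. Tap1 and Tap2, the pair of subunits of the transporter that carries peptides into the endoplasmic reticulum, stood at 7.91 and 7.58 in TTg-MI hearts, against 8.16 and 7.86 in Ctrl-MI hearts, for Tap1, and at 9.28 and 8.82, against 9.10 and 9.04, for Tap2. Tapbp, which encodes tapasin, the bridge between the transporter and the class I molecule, stood at 12.09 and 12.05, against 12.59 and 11.46. The groups overlapped for all 3, and the differences were -0.27 (SE 0.20), -0.02 (SE 0.20) and 0.05 (SE 0.37). For Tapbp the Ctrl-MI hearts lay on either side of the TTg-MI hearts, and leaving out Ctrl-MI replicate 1 gave 0.62, where leaving out Ctrl-MI replicate 2 gave -0.52.

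The immunoproteasome subunits, which replace constitutive catalytic subunits under interferon gamma and favour peptides that fit class I, had both TTg-MI arrays below both Ctrl-MI arrays in 3 of 3 genes, against 18.7% of all probes. Psmb8 stood at 8.24 and 7.24 in TTg-MI hearts, against 8.80 and 8.27 in Ctrl-MI hearts, and Psmb9 at 6.32 and 5.71, against 6.62 and 6.44. Psmb10 stood at 8.47 and 8.30, against 8.82 and 9.17. In Psmb8 and Psmb9 the low array was TTg-MI replicate 2, with TTg-MI replicate 1 only just below Ctrl-MI replicate 2. The differences were -0.80 (SE 0.37, 1.74-fold lower), -0.51 (SE 0.24) and -0.61 (SE 0.19, 1.52-fold lower), with adjusted p in limma of 0.643, 0.645 and 0.555. Psmb10 kept between -0.78 and -0.44 as single arrays were left out, while Psmb8 ran from -1.30 to -0.30 and Psmb9 from -0.82 to -0.21, the first of each pair lacking TTg-MI replicate 1 and the second lacking TTg-MI replicate 2. The constitutive counterparts Psmb6, which Psmb9 replaces, and Psmb7, which Psmb10 replaces, differed by -0.09 (SE 0.18) and 0.07 (SE 0.35). Psmb6 ran from -0.22 without TTg-MI replicate 2 to 0.040 without TTg-MI replicate 1. Psmb7 ran from -0.42 without Ctrl-MI replicate 1 to 0.57 without Ctrl-MI replicate 2. A counterpart of Psmb8 was not among the measured genes.

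**Figure D3:**
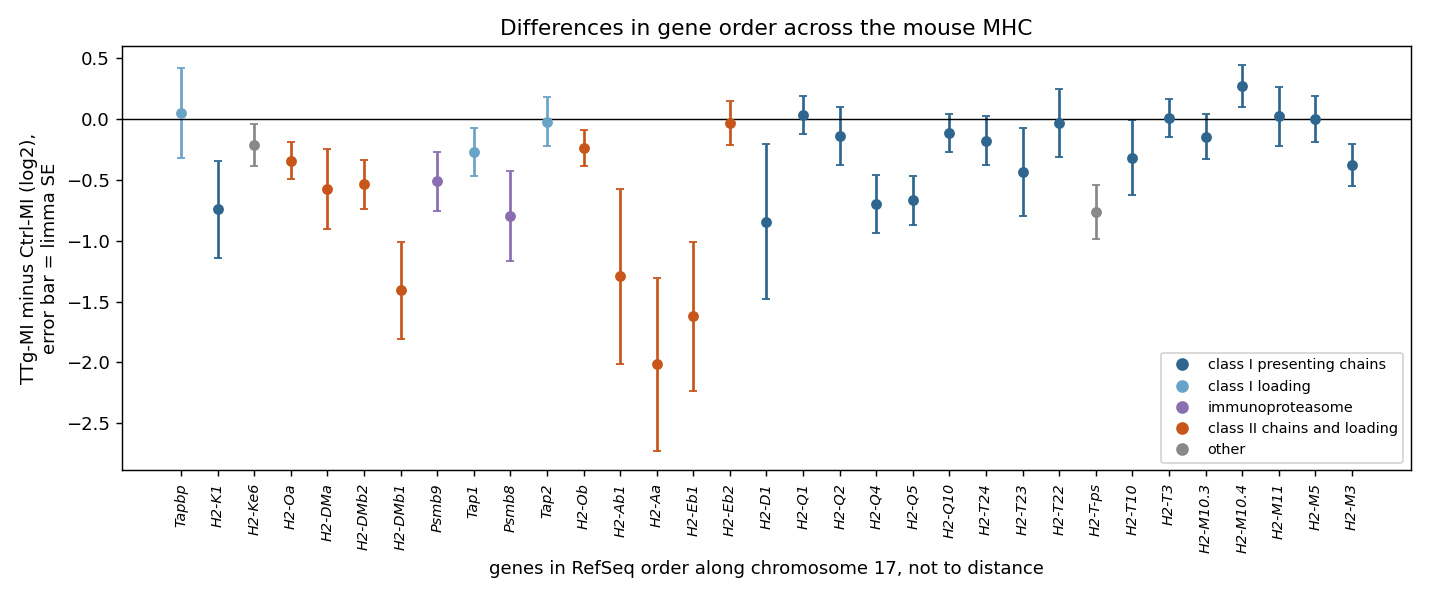
TTg-MI minus Ctrl-MI differences in log2 units (vertical axis, limma SE as error bars) of 33 members in their RefSeq order along mouse chromosome 17, evenly spaced and coloured by class. The 4 lowest points are H2-DMb1 (-1.41) and the adjacent H2-Ab1 (-1.29), H2-Aa (-2.02) and H2-Eb1 (-1.62), while Tap1 (-0.27) and Tap2 (-0.02) lie between class II genes.

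All but 3 members lie on chromosome 17, and neighbouring genes there differed by unlike amounts. In RefSeq order, H2-DMb1 (-1.41) is followed by Psmb9 (-0.51), Tap1 (-0.27), Psmb8 (-0.80), Tap2 (-0.02), H2-Ob (-0.24), H2-Ab1 (-1.29), H2-Aa (-2.02), H2-Eb1 (-1.62) and H2-Eb2 (-0.03). Psmb9 and Tap1 are transcribed away from each other, and their 300-base promoter windows share 275 bases on opposite strands. H2-Ke6, which encodes a hydroxysteroid dehydrogenase with no role in presentation, stood at 6.78 and 7.08 in TTg-MI hearts, against 7.14 and 7.15 in Ctrl-MI hearts (-0.21, SE 0.17).

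The classes were compared within arrays by setting the class II chain H2-Ab1 against the class I chain H2-K1. H2-Ab1 minus H2-K1 was -3.03 and -2.72 in TTg-MI hearts, against -1.67 and -2.98 in Ctrl-MI hearts (log2), so that Ctrl-MI replicate 1 stood apart and the other 3 arrays lay close together. The group means differed by -0.55, with an exact two-sided permutation p of 0.667 for this ratio, where the design allows no p below 0.333. Without Ctrl-MI replicate 1 the difference was 0.10. A larger shift in class II than in class I is therefore not shown by this ratio, and the class medians of -0.57 and -0.11 were not tested against each other.

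Class averages also differed between the hearts of a group. Relative to each gene's mean over the 4 arrays, class II genes averaged -0.41 and -0.48 in TTg-MI hearts, against 0.98 and -0.08 in Ctrl-MI hearts. The trio of B2m, H2-K1 and H2-D1 averaged -0.015 and -0.79, against 0.98 and -0.18, and the immunoproteasome -0.023 and -0.62, against 0.38 and 0.26. Class II was thus low on both TTg-MI arrays, while the class I trio and the immunoproteasome were low mainly on TTg-MI replicate 2. All 25 class I chains averaged 0.016 and -0.21, against 0.29 and -0.09.

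**Figure D4:**
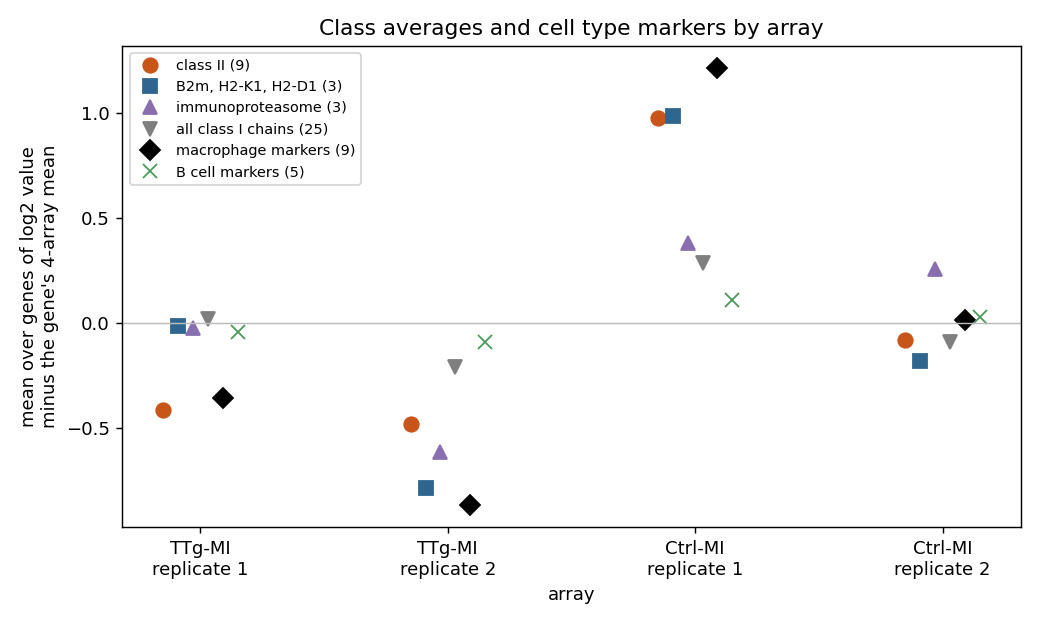
Mean over the genes of a class of each log2 value minus that gene's mean over the 4 arrays (vertical axis), for each array, with the number of genes in brackets. Class II genes and macrophage markers are both highest on Ctrl-MI replicate 1 (0.98 and 1.22), and the spread of B cell markers is small.

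Markers of macrophages were lower in mean alongside the class II genes. Of 9 measured macrophage markers 9 had a lower TTg-MI mean, against 47.7% of all probes, and 8 had both TTg-MI arrays below, against 18.7%, with a median difference of -1.09. Relative to their 4-array means they averaged -0.36 and -0.87 in TTg-MI hearts, against 1.22 and 0.014 in Ctrl-MI hearts. Their mean log2 level was 8.59 and 8.08 in TTg-MI hearts, against 10.16 and 8.96 in Ctrl-MI hearts, and no marker was under a lower quartile. As single arrays were left out their median ran from -1.62 (without Ctrl-MI replicate 2) to -0.61 (without Ctrl-MI replicate 1). Csf1r, the receptor for the macrophage growth factor, stood at 8.74 and 8.78, against 10.27 and 9.14, and Adgre1, which encodes F4/80, at 6.46 and 6.16, against 7.93 and 6.87. The part of macrophage content in the class II differences was not tested.

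Markers of other cell types, whether or not they bear class II, were read from the same whole-heart values. Of 8 dendritic cell markers 4 had a lower mean (median 0.077), all values lay between 4.82 and 7.45, their mean level was 5.92 and 5.89 in TTg-MI hearts, against 6.03 and 5.75 in Ctrl-MI hearts, and Flt3 and Clec9a were under the lower quartile of every array. Of 5 B cell markers 4 had a lower mean (median -0.16), with a mean level of 5.58 and 5.53, against 5.73 and 5.65. All their values lay between 5.07 and 6.23, and 3 of the 5 were under the lower quartile on some arrays. Both TTg-MI arrays were below for 2 of the 5 and above for 0, against 18.7% and 19.4% of all probes. Of 8 T and NK cell markers 5 had a lower mean (median -0.08), with a mean level of 5.61 and 5.53, against 5.64 and 5.61. Of 6 endothelial markers 3 were lower (median -0.010), with differences from -0.56 for Pecam1 to 0.69 for Tie1. Both TTg-MI arrays were below for 1 of the 6 and above for 2, against 18.7% and 19.4% of all probes. The endothelial median ran from -0.28 without Ctrl-MI replicate 2 to 0.29 without Ctrl-MI replicate 1. Fibroblast markers were lower in mean for 5 of 5 (median -0.96), and all 5 had both TTg-MI arrays below, against 18.7% of all probes. Their mean level was 12.10 and 11.43 in TTg-MI hearts, against 13.12 and 12.47 in Ctrl-MI hearts, and leaving out TTg-MI replicate 1 or 2 put their median at -1.37 or -0.53. Cardiomyocyte markers were lower for 0 of 6 (median 0.19, and 0.011 without Ctrl-MI replicate 1), with Tnnt2 and Myh6 within 1 log2 unit of the maximum on 4 arrays and Myl2 on 3. Atrial markers were lower for 1 of 5 (median 3.63), but for 3 of 5 without Ctrl-MI replicate 2 (median -0.33). The part of these cell types in the members' differences was not tested.

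The pathway's other genes are described next. Of 31 measured genes of antigen processing, its regulators and its T cell partners, 22 had a lower mean, against 47.7% of all probes, with a median of -0.17 that ran from -0.29 without TTg-MI replicate 1 to -0.09 without Ctrl-MI replicate 1. Both TTg-MI arrays were below for 12, against 18.7% of all probes. None passed the adjusted threshold, while 5 were lower at an unadjusted p under 0.05, against 5.07%, and 0 were higher, against 3.18%. Of the 5, Ctss and Ifi30 act in the endosomes where class II is loaded. Ctss, which encodes the protease cathepsin S, stood at 8.63 and 8.16 in TTg-MI hearts, against 11.25 and 9.40 in Ctrl-MI hearts (-1.93, SE 0.59, 3.81-fold lower). Ifi30, a thiol reductase that opens disulphide bonds of antigens, stood at 8.19 and 8.55, against 10.21 and 8.99 (-1.23, SE 0.41). Both had Ctrl-MI replicate 1 far above the rest, without overlap. Without Ctrl-MI replicate 1 or 2 the difference was -1.004 or -2.86 for Ctss and -0.62 or -1.84 for Ifi30.

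Cd80 and Cd86, the costimulatory ligands that T cells need beside the MHC, were the next pair. Cd80 stood at 6.07 and 6.12 in TTg-MI hearts, against 7.47 and 6.70 in Ctrl-MI hearts (-0.99, SE 0.27, 1.99-fold lower), and Cd86 at 5.54 and 5.76, against 6.34 and 5.97 (-0.50, SE 0.20). Calr, the chaperone calreticulin of the class I loading complex, stood at 16.21 and 15.97, against 16.58 and 16.51 (-0.45, SE 0.16). The groups did not overlap in any of these 3, and the adjusted p in limma of the 5 genes ran from 0.546 to 0.6004. Lacking Ctrl-MI replicate 1, Cd80 differed by -0.61 and Cd86 by -0.32. Marchf1, a ubiquitin ligase that removes class II from the surface, followed at 5.86 and 6.07, against 7.26 and 6.30 (-0.81, SE 0.33), and differed by -0.33 or -1.29 without Ctrl-MI replicate 1 or 2. The interferon gamma gene Ifng was under the lower quartile of every array. Its receptor gene Ifngr1 stood at 9.61 and 9.75, against 10.38 and 9.72 (-0.37, SE 0.25), and differed by -0.044 without Ctrl-MI replicate 1. The other receptor gene, Ifngr2, differed by -0.03 (SE 0.22). The class II promoter factor Rfx5 stood at 7.12 and 7.09, against 7.20 and 7.07 (-0.03, SE 0.15). Of the other regulatory factor X genes, Rfxap differed by 0.30 (SE 0.16), with both TTg-MI arrays above. Rfxank differed by -0.28 (SE 0.19), with overlapping groups.

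**Figure D5:**
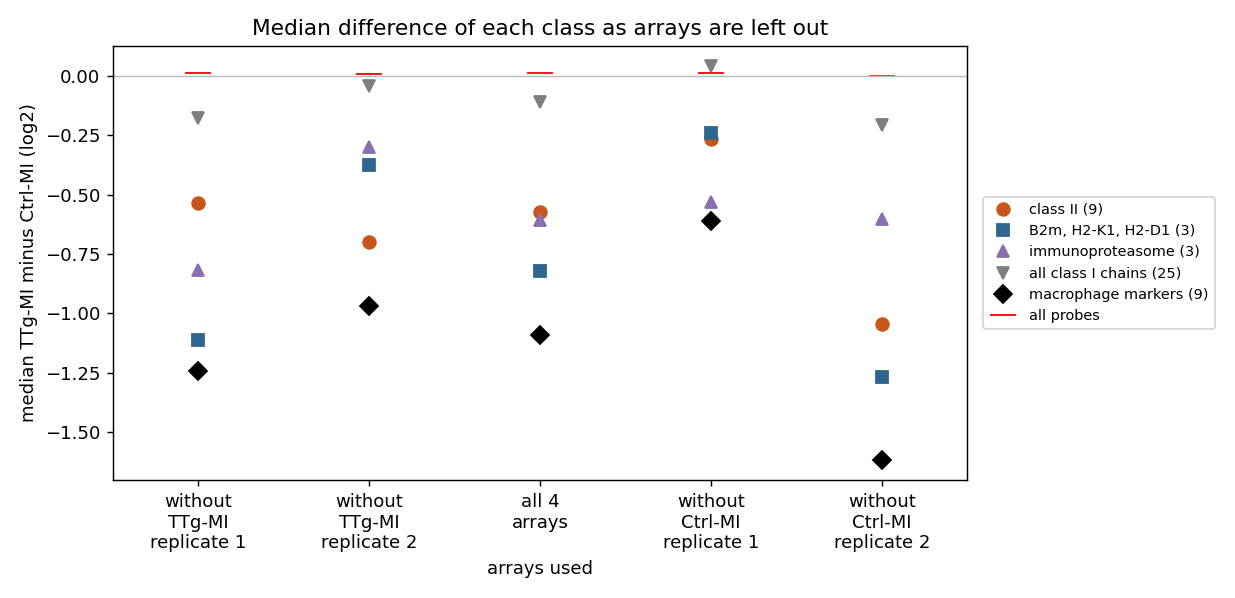
Median TTg-MI minus Ctrl-MI difference in log2 units (vertical axis) of each class with all 4 arrays and with each array left out, beside macrophage markers and all probes. Class II medians run from -1.05 without Ctrl-MI replicate 2 to -0.26 without Ctrl-MI replicate 1, where the median of all class I chains is 0.042.

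As single arrays were left out, the class II genes with a lower TTg-MI mean numbered 8 and 9 of 9 when TTg-MI replicate 1 or 2 was dropped, and 8 and 9 of 9 when Ctrl-MI replicate 1 or 2 was dropped. H2-Eb2 was the exception in both fits with 8. Class I chains with a lower mean numbered 18, 16, 11 and 20 of 25 in the same order, and the immunoproteasome kept 3 of 3 throughout. The class II median was -0.53, -0.70, -0.26 and -1.05, and that of the class I trio -1.11, -0.38, -0.24 and -1.27.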

How the data were processed

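Hearts were measured on Clariom S Mouse arrays, per the design text. The deposited values come from the authors' run of Expression Console 1.4 (Affymetrix), as the submitters' processing notes record, and were taken as log2 expression values from their range of about 4 to 20. Normalization, summarization, annotation version and build are not given in the sources used here. Values were used as deposited, without filter. Of 22206 probes, 19572 had 1 gene symbol in the platform annotation and 2634 were unnamed.

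Each probe was tested for TTg-MI minus Ctrl-MI with limma 3.58.1 in R 4.3.3 (lmFit, eBayes, two-sided; 2 residual degrees of freedom plus 3.56 from the shared variance), with Benjamini-Hochberg adjustment over all probes. The code was tested on simulated data. The number of arrays limits the precision. Members and lists were chosen with earlier results of these data known, and lists are described by counts and medians. Genes were named by role: every member above a lower quartile on some array, and of the other pathway genes those at an unadjusted p under 0.05 or among the 6 smallest p. Psmb6, Psmb7, Ifng, Ifngr1, Ifngr2, Rfx5, Rfxap, Rfxank and the marker genes given with values were picked outside this rule, after their values were seen. A planned second ratio between the classes had no probe for 1 of its genes and was not computed. The alternatives changed the scaling (quantile normalization or centring on array medians), the probes (dim ones removed, or a symbol's probes averaged), the model (intensity trend and robust prior, ordinary linear model, replicate block), the threshold, and the arrays (each left out in turn).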

Additional observations from a re-analysis of the deposited data

How the results depend on the processing

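With 2 hearts a group, the differences of 32 of 36 members moved by more than 1.5 times when some array was left out, in fits that assume the lone array of a group to vary like the other group. The direction of the class medians and of their gap, and the count of 0 members past the adjusted threshold, held under quantile normalization, median centring, the dim filter, the replicate block and the mean of a symbol's probes, and the count of 0 also with a trend and robust prior, an ordinary linear model and a threshold of 0.1. Leaving out dim probes gave a class I median of -0.25 and a gap of -0.33, as low class I genes left the list. No member has more than 1 probe. The 9 members at an unadjusted p under 0.05 became 14 with the replicate number as a block and 2 in the ordinary linear model, where the calls over all probes went to 2465 and 1241, against 1833 in the reported fit. The numbers 1 and 2 are not stated to pair hearts (correlation of deviations 0.163 over 22206 probes), and the block passed 0 members after adjustment.

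Leaving out single arrays gave 0 to 4 members past the adjusted threshold, 1 to 17 at an unadjusted p under 0.05 (3.88% to 14.7% of all probes) and 17 to 30 with the arrays apart and TTg-MI below (32.5% to 36.4% of all probes, against 18.7% with 4 arrays). The class I median ran from -0.21 to 0.042, the class II median from -1.05 to -0.26, their gap from -0.84 to -0.31, and the H2-Ab1 to H2-K1 ratio from -1.20 to 0.10. The count of arrays apart and the ratio under other settings were added after seeing the data.

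Of 36 members given values, 22 kept their direction in every fit. The other 14 crossed zero: H2-M5 (-0.14 to 0.14, and -0.017 after quantile normalization), H2-M10.3 (-0.33 to 0.042), H2-M11 (-0.25 to 0.30), H2-Q1 (-0.049 to 0.11), H2-Q2 (-0.44 to 0.16), H2-T3 (-0.064 to 0.077), H2-T10 (-0.76 to 0.13), H2-T22 (-0.38 to 0.31), H2-T23 (-0.96 to 0.090), H2-T24 (-0.36 to 0.0028), Tapbp (-0.52 to 0.62), Tap2 (-0.25 to 0.21, and 0.015 after quantile normalization), H2-Eb2 (-0.18 to 0.12) and Ciita (-0.66 to 0.065). The causes were not tested. Values near the arrays' lower quartiles limit the H2-M genes, H2-DMa, H2-Eb2 and Ciita.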
